A study of Mus musculus with 29 samples.

Results

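Loss of the second Myt1l allele was examined in embryonic mouse cortex by setting the accessibility of chromatin in libraries with 2 mutant alleles (Hom) directly against that in libraries with 1 mutant allele (Het). These are 11 of the 29 libraries of the series: 6 Hom and 5 Het libraries of E14.5 cortex, all from a line that carries a knockout of Myt1l. Genotype and litter were read from the sample titles. Litter 1 gave 4 Hom and 3 Het libraries and litter 2 gave 2 of each. A further 6 WT libraries of the same stage, 4 from litter 1 and 2 from litter 2, gave the reference level and shared the estimate of spread. The comparison covered 138760 of 205908 regions, those whose mean over these 17 libraries reached 1 CPM (read counts scaled to a common library total). The labels do not state the sex of the embryos, the form of the mutant allele or whether each library came from its own embryo, and every p-value below therefore rests on the spread between libraries, which may be partly technical.

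MYT1L is a zinc finger transcription factor that appears as progenitors become neurons, and it is best known as a repressor of genes that belong to other cell lineages. At mid-gestation the cortex holds dividing progenitors beside newly made neurons. ATAC-seq inserts sequencing adapters into DNA with a transposase, so that regions where the DNA is open, such as active promoters and enhancers, collect more reads than closed ones. In whole cortex, a region that is less open in every cell and one that is open in fewer cells cannot be told apart. The deposited table numbers its regions and pairs none of them with a gene or a position, so genes, sequences and markers of cell type are not analysed here and neither the tissue nor the genotype labels were set against a gene.

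The libraries were on a like scale as deposited. All 17 shared an upper quartile of 4.61 CPM, which the authors' scaling may have set. Their sums were not equal and ran from 988150 to 1045800 CPM. Correlations of log2 CPM over the tested regions ran from 0.957 to 0.976 among Hom libraries, from 0.961 to 0.982 among Het libraries and from 0.956 to 0.979 between the groups. The median SD over libraries was 0.19 log2 in Het, 0.21 in Hom and 0.21 in WT. The authors' adjustment had emptied 3 of the 16 directions in which 17 libraries can vary: their root mean square was 0.0113 to 0.0155 log2, against 0.265 to 0.341 in the other 13. A test that ignores this may understate the spread, so the main counts below are also given from a fit with these directions as covariates. The original depth is unknown, and low values moved in steps of 0.0501 to 0.0507 CPM.

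Few regions separated the 2 mutant groups. Hom libraries were more open than Het libraries at 11 regions and less open at 18, together 29 regions, or 0.0209% of those tested (limma, Benjamini-Hochberg adjusted p under 0.05). The rises were 0.00793% and the falls 0.013% of tested regions. Rises ran from 0.25 to 1.36 log2 with a median of 0.49, and falls from 0.18 to 1.21 log2 in size with a median of 0.36. Over all tested regions the median difference was 0.01 log2 and its median size 0.11 log2. At an unadjusted limma p under 0.05, 8648 regions (6.23%) were higher and 7044 (5.08%) lower in Hom, together 11.3%. The called regions fell into 3 kinds: 11 rises at 1.08 to 33.0 CPM, 10 falls at 1.61 to 49.1 CPM, and 8 falls at 215 to 3650 CPM, among the most open regions of the table. The line between the lower and the most open falls, which lies in the gap between 49.1 and 215 CPM, was drawn after the values were seen.

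The count was sensitive to how the spread was estimated and to single libraries. Adding the emptied directions as covariates gave 18 calls (0.013%), 4 rises and 14 falls, and 7.37% had an unadjusted p under 0.05. Among the 29 were 14 of those 18: 2 of the rises, 4 of the lower falls and all 8 of the most open ones. Without limma's variance trend 16 regions were called, of which 6 were among the 29 and 0 were among the 8 most open falls. Among the Het libraries, leaving out replicate 64 gave 10 calls, replicate 34 gave 11 and replicate 31 gave 17. Of the Hom libraries, leaving out replicate 54 gave 10 calls, replicates 6 and 20 gave 18 each and replicate 40 gave 19. Quantile normalization gave 17 rises and 36 falls, and removing each library's trend against level gave 13 rises and 40 falls. The balance of directions was not stable either. Without Het replicate 27 there were 21 rises and 15 falls, with 15 of the 29 regions among these 36. Rises and falls were equal without Het replicate 64 (5 and 5) and with a robust empirical Bayes fit (9 and 9), and litter 2 alone gave 4 rises and 1 fall.

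**Figure D1:**
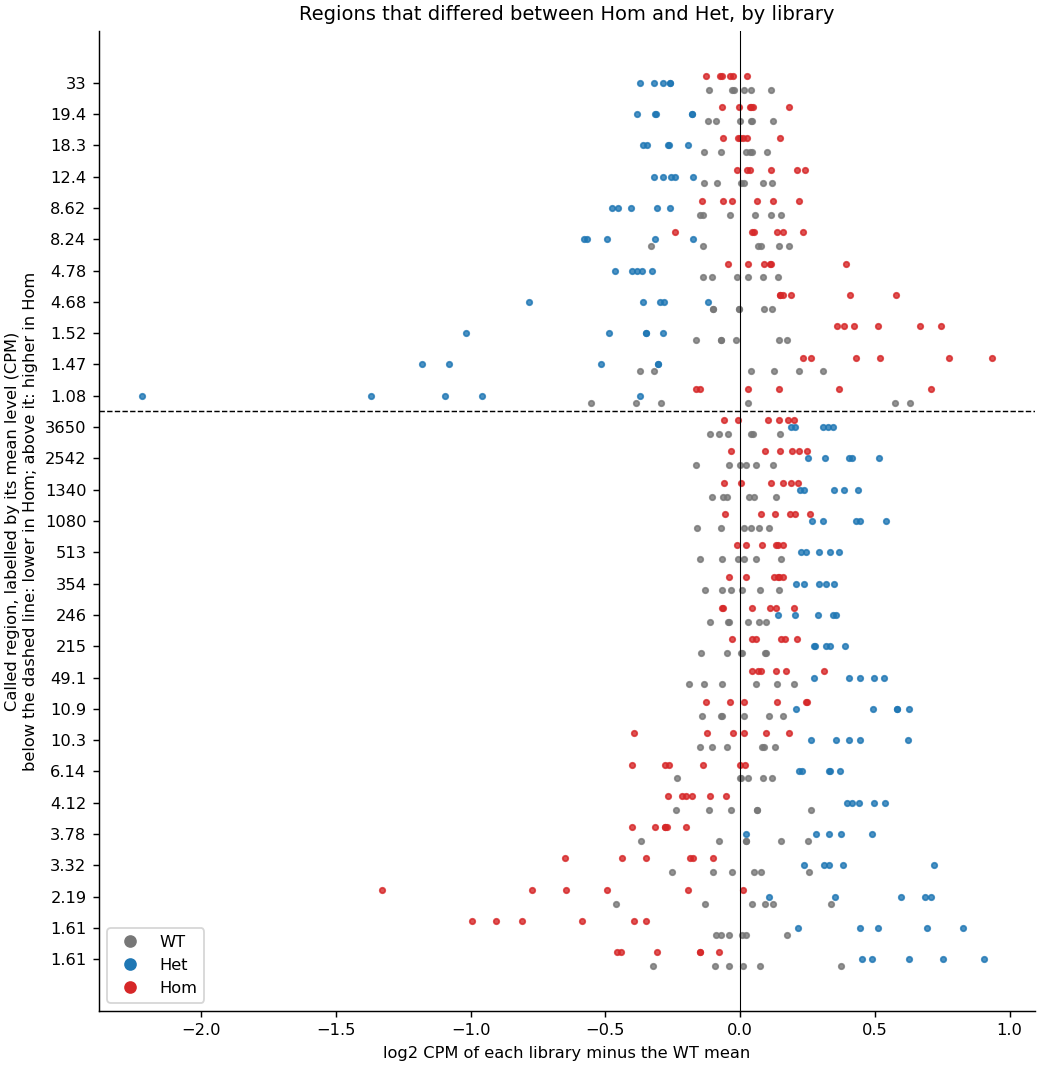
Each row is 1 of the 29 called regions, labelled by its mean level in CPM, and each point is 1 library as log2 CPM minus the WT mean of that region (grey WT, blue Het, red Hom). Falls in Hom lie below the dashed line and rises above it; the Het mean lies to the right of WT at all 18 falls and to the left at all 11 rises, although single libraries overlap at some regions.

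**Figure D2:**
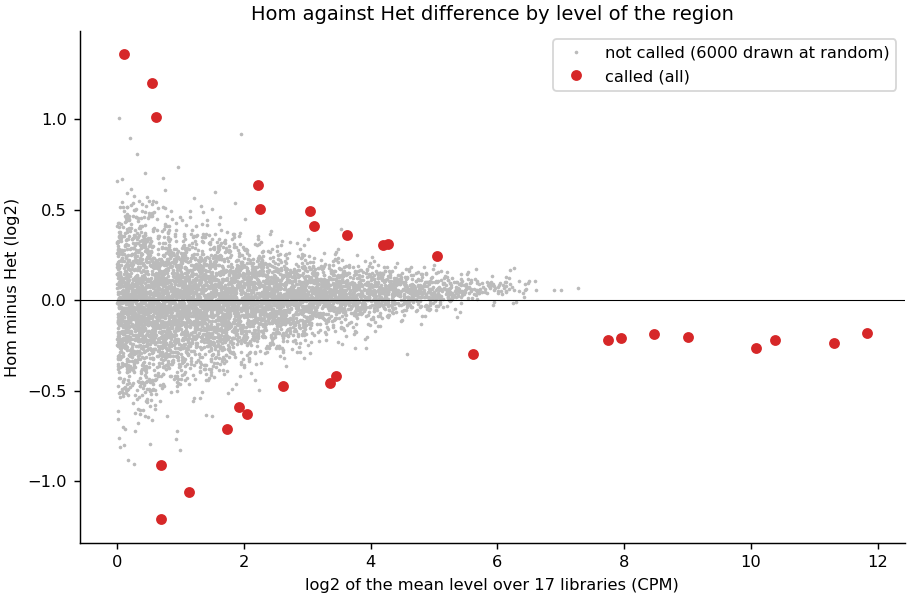
The Hom minus Het difference in log2 (vertical) is set against the log2 mean level in CPM (horizontal) for all 29 called regions (red) and a random sample of the other regions (grey). The called regions past 0.5 log2 sit at low levels, and the 8 falls above 215 CPM sit at 0.18 to 0.27 log2 below 0.

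Among the rises, the largest was at all_e14_peak_72104. Its 5 Het libraries measured 0.253, 0.456, 0.552, 0.608 and 0.912 CPM, while the Hom libraries ran from 1.05 to 1.93 CPM with a median of 1.25 CPM. All 6 Hom libraries therefore lay above all 5 Het libraries, and the WT libraries, at 0.802 to 1.82 CPM with a median of 1.08 CPM, overlapped with both groups. The rise was 1.36 log2 (SE 0.26, limma adjusted p = 0.0409) in Hom over Het. With the emptied directions as covariates its adjusted p was 0.0531, and with 0.5 added to CPM before the log the difference was 0.82 log2 (adjusted p = 0.052), so this region is called only narrowly. It was called in 14 of 31 alternative settings.

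The second largest rise was at all_e14_peak_93506. Het libraries measured 0.608, 0.652, 0.962, 1.11 and 1.11 CPM, and Hom libraries ran from 1.62 to 2.63 CPM with a median of 1.92 CPM. The groups did not overlap, and the WT libraries (1.06 to 1.70 CPM, median 1.46 CPM) lay between their means. The rise was 1.20 log2 (SE 0.20, limma adjusted p = 0.0127). It was 1.47 log2 in litter 1 and 0.76 log2 in litter 2, and it was called in 30 of 31 alternative settings. Of these settings 17 only leave out 1 library, so they are not independent checks. It also has the smallest p of the rises.

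The most open rise was a far weaker change at a stronger region. Its Het libraries measured 27.3, 28.3, 29.0, 29.5 and 29.5 CPM, against 32.3 to 36.0 CPM in Hom with a median of 34.04 CPM. No Hom library overlapped with a Het library, while WT, at 32.6 to 38.2 CPM with a median of 35.2 CPM, overlapped with Hom and lay above Het. The rise was 0.25 log2 (SE 0.05, limma adjusted p = 0.0401), and with the emptied directions as covariates its adjusted p was 0.165. This region was called in 13 of 32 alternative settings.

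Among the called falls, all_e14_peak_12340 had both the largest change and the smallest p. Its Het libraries measured 1.85, 2.18, 2.28, 2.58 and 2.84 CPM. Hom libraries ran from 0.802 to 1.25 CPM with a median of 0.988 CPM, and WT libraries from 1.504 to 1.80 CPM with a median of 1.58 CPM. The 3 groups did not overlap with one another: every WT library lay below every Het library and above every Hom library. Accessibility fell by 1.21 log2 from Het to Hom (SE 0.18, limma adjusted p = 0.00262). The Hom libraries were also lower than WT, by -0.67 log2 (SE 0.17), but that comparison did not pass (limma adjusted p = 0.211). The fall from Het to Hom was -1.07 log2 in litter 1 and -1.43 log2 in litter 2, and it was called in 29 of 31 alternative settings.

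At all_e14_peak_79526, Het libraries measured 2.31, 2.74, 3.24, 3.45 and 3.50 CPM, and Hom libraries 0.852 to 2.16 CPM with a median of 1.44 CPM. All Hom libraries lay below all Het libraries, and WT libraries (1.55 to 2.71 CPM, median 2.24 CPM) overlapped with both. The fall was -1.06 log2 (SE 0.18, limma adjusted p = 0.0127), with -0.91 log2 in litter 1 and -1.31 log2 in litter 2. It was called in 27 of 32 alternative settings.

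**Figure D3:**
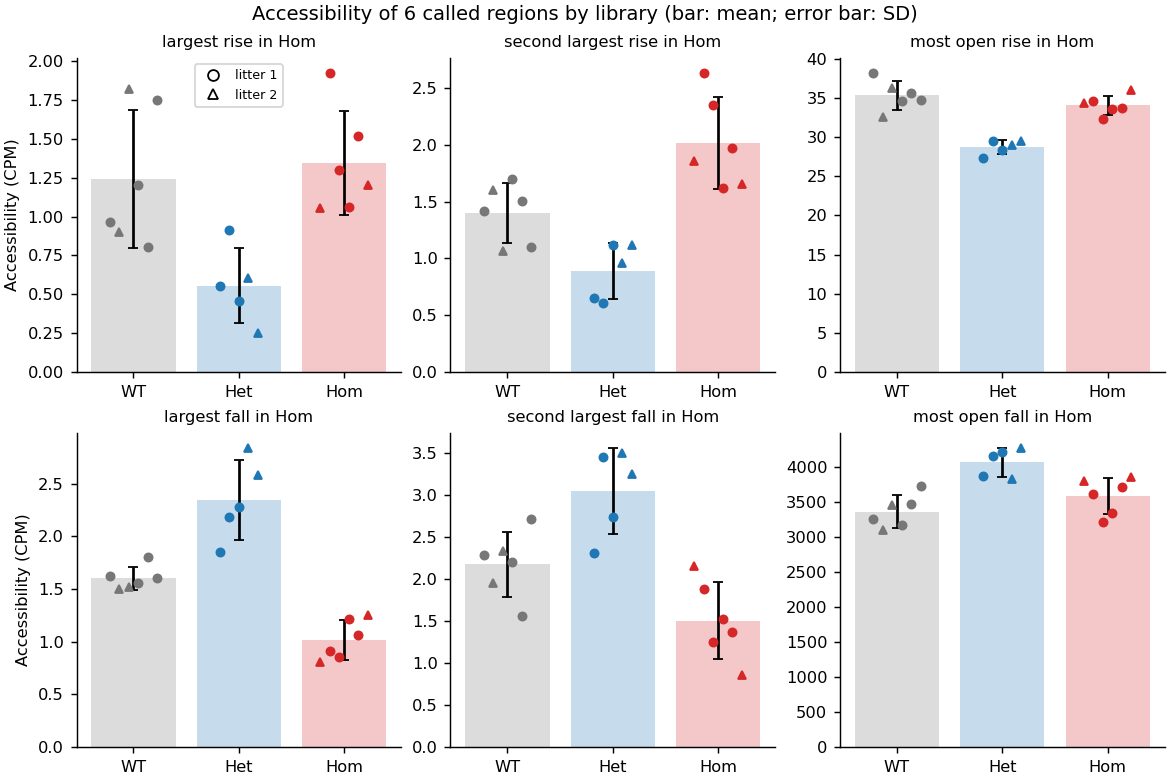
Accessibility in CPM is shown for 6 called regions, with WT, Het and Hom side by side: bars are group means, error bars are SD over 6 WT, 5 Het and 6 Hom libraries, circles are litter 1 and triangles litter 2. In the upper row (rises) Het is the lowest group, and in the lower row (falls) Het is the highest.

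The 8 falls at the most open regions were small and closely alike. Their SEs were 0.04 log2, resting partly on limma's variance trend over all regions. The 8 falls ran from 0.18 to 0.27 log2 in size, at mean levels of 215 to 3650 CPM. The region with the highest mean level of the table is one of them: it ranked first in every library, with 3826, 3869, 4159, 4214 and 4268 CPM in Het, 3221 to 3858 CPM in Hom (median 3661 CPM) and 3104 to 3725 CPM in WT (median 3352 CPM). Single Hom and Het libraries overlapped there, and Hom was lower by -0.18 log2 (SE 0.04, limma adjusted p = 0.0487). The SE of this difference was 0.07 log2 without limma's variance trend and 0.06 log2 with a robust empirical Bayes fit. Neither fit called the region. The difference was -0.23 log2 in litter 1 and -0.08 log2 in litter 2, and the region was called in 15 of 32 alternative settings.

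These 8 regions moved as a block. Once group means were removed, their levels correlated over the 17 libraries with a median r of 0.90 (0.57 to 0.99 over pairs). With such a correlation they are not 8 separate observations. Among the other 21 called regions the median was 0.0047 (-0.72 to 0.67), but those lie at 1.08 to 49.1 CPM. No correlation was computed for uncalled regions at like levels, so it is not shown to be particular to the 8. Of the 8, 4 carry consecutive region numbers, but no positions are given. As a mean over the 8 regions, and relative to the WT mean, Het libraries lay at 0.32 ± 0.08 log2 (SD, n = 5) and Hom libraries at 0.10 ± 0.09 log2 (SD, n = 6). Het replicate 64 was the highest at 0.41 log2 and Hom replicate 40 the lowest at -0.04 log2. Without Het replicate 64, 1 of the 8 was still called, without Hom replicate 54, 2 were, and 5 were when Het replicate 31 or 34, Hom replicate 20 or 40 or WT replicate 46 was left out. A robust empirical Bayes fit kept 1, and quantile normalization, which sets the topmost region to the same value in every library, also kept 1. Of the 47 regions above that line, the lowest of which had a mean of 128.4 CPM, the other 39 were not called. Those 39 were less open at the median (146 CPM, against 797 CPM in the 8). Their median Hom minus Het difference was 0.05 log2 (-0.20 to 0.14). At any size, 12 of all 47 were lower in Hom. The 8 are set apart only by the call and by level. Uncalled regions at 360 and 409 CPM measured -0.22 and -0.25 log2 in litter 1, and -0.05 and -0.09 log2 in litter 2. Whether the falls of the 8 depend on openness was not tested.

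The other 10 falls and the 11 rises did not share this pattern between libraries. At the 10 falls, the mean relative to WT was 0.45 ± 0.03 log2 in Het and -0.23 ± 0.05 log2 in Hom. At the 11 rises it was -0.46 ± 0.06 log2 in Het and 0.16 ± 0.07 log2 in Hom. The regions were chosen for the Hom against Het difference, so these means describe them and test nothing. Of the 29 regions, 24 had no overlap between Hom and Het libraries: 10 of the 11 rises and 14 of the 18 falls. Over all tested regions 1973 (1.42%) had no overlap, 1051 (0.757%) higher and 922 (0.664%) lower in Hom. Without the filter on level 15 regions were called, and all 15 are among the 29.

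At all 29 regions Het was the outermost of the 3 genotypes. It had the lowest group mean at all 11 rises and the highest at all 18 falls. Relative to WT, the rises measured -1.20 to -0.26 log2 in Het (median -0.38) and -0.05 to 0.53 log2 in Hom (median 0.10). The falls measured 0.27 to 0.64 log2 in Het (median 0.39) and -0.67 to 0.14 log2 in Hom (median 0.07). The 8 most open falls stayed on the Het side of WT in Hom, at 0.06 to 0.14 log2. Regions called between Hom and Het tend to be those where Het is extreme, and both sets of values share the Het or the WT libraries. Of the 29, 21 were also called between Het and WT (1.22% of all tested regions were) and 0 between Hom and WT, where limma called 0 of 138760 regions (0%) and 12926 (9.32%) had an unadjusted p under 0.05.

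Whether the second allele adds as much as the first was tested directly. The step from Het to Hom minus the step from WT to Het is 0 where each lost allele shifts accessibility equally. It differed from 0 at 921 regions (0.664%; limma, adjusted p under 0.05), and 15.1% had an unadjusted p under 0.05. Of the 921, 630 (0.454%) were positive, with Het below the middle of WT and Hom, and 291 (0.21%) negative, with Het above it. At 630 of the 921 regions Het had the lowest mean of the 3 genotypes, at 291 the highest, and at 0 it lay between WT and Hom. The test is passed most easily where Het lies outside the other groups. Over all tested regions Het was lowest at 39.2%, highest at 33.5% and between at 27.3%. At the positive regions the median was -0.27 log2 for Het minus WT, 0.22 log2 for Hom minus Het and -0.05 log2 for Hom minus WT. At the negative regions these medians were 0.46, -0.38 and 0.07 log2. All 29 regions called between Hom and Het were among the 921. The step difference holds the Hom minus Het difference, and Het is outermost at those 29, so this overlap was largely fixed.

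The unequal steps were mostly small, with a median size of 0.57 log2 and 181 regions above 1 log2. The largest positive value was again at all_e14_peak_72104 (2.56 log2, SE 0.46, limma adjusted p = 0.00651), whose library values are given above. The next was at all_e14_peak_208154 (2.21 log2, SE 0.55, limma adjusted p = 0.0452), with 0.202, 0.301, 0.658, 0.861 and 1.11 CPM in Het, 0.652 to 1.47 CPM in Hom (median 1.13 CPM) and 0.709 to 1.90 CPM in WT (median 1.29 CPM). Its groups overlapped, and its Hom minus Het difference was 1.83 log2 in litter 1 but -0.28 log2 in litter 2.

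On the negative side, the largest value was at all_e14_peak_178423 (-1.80 log2, SE 0.42, limma adjusted p = 0.0344). Het libraries measured 1.17, 1.27, 1.57, 1.62 and 2.31 CPM, Hom libraries 0.502 to 1.17 CPM (median 0.807 CPM) and WT libraries 0.702 to 1.20 CPM (median 0.878 CPM), so that the lowest Het library met the highest Hom library. At all_e14_peak_81661 (-1.77 log2, SE 0.38, limma adjusted p = 0.0234) Het libraries measured 1.32, 1.42, 1.72, 1.82 and 1.90 CPM. Hom libraries, at 0.702 to 1.01 CPM with a median of 0.932 CPM, and WT libraries, at 0.552 to 1.17 CPM with a median of 0.957 CPM, all lay below them. With the emptied directions as covariates, of these 4 regions only all_e14_peak_72104 stayed called (adjusted p = 0.0091, against 0.0936 to 0.115 at the other 3).

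The number of unequal steps and their direction both depended on processing. With the emptied directions as covariates 85 regions (0.0613%) were called, 36 positive and 49 negative, of which 84 were among the 921, and 10.5% had an unadjusted p under 0.05. With litter as a block 502 were called (342 positive, 160 negative). The majority turned after quantile normalization, with 144 positive and 239 negative, and after removal of the trend against level, with 123 positive and 222 negative. It also turned without the variance trend (15 positive, 24 negative) and without Het replicate 34 (31 positive, 42 negative). Without Het replicate 34, 73 regions were called, all of them among the 921. Without Het replicate 64, 233 were called (209 among the 921), without Het replicate 49, 237 (228 among them), and without Het replicate 31, 425 (339 among them). Without WT replicate 25, 401 were called, without WT replicate 10, 493, without Hom replicate 54, 495, and without WT replicate 43, 538. The highest decile by level held 331 (52.5%) of the positive regions and 39 (13.4%) of the negative ones.

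Differences between Hom and Het depended on how open a region was. The median Hom minus Het difference was -0.02 log2 for the weakest decile of regions (up to 1.20 CPM), -0.03 log2 in the third and 0.05 log2 in the highest (above 16.6 CPM). In the highest decile 17.5% of regions were higher and 1.15% lower in Hom at an unadjusted limma p under 0.05, and 2.35% were higher against 0.173% lower with no overlap between libraries. The called regions of that decile did not follow it, with 3 rises and 9 falls, 8 of which are the block described above.

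The same dependence appeared in each library as the slope of its deviation from the mean of all libraries against log2 level. It was 0.00122 ± 0.00515 (SD, n = 6) in Hom and -0.0155 ± 0.00597 (SD, n = 5) in Het, in log2 per log2. WT libraries had a mean of 0.0117, from -0.00124 to 0.0167. The mutant groups did not overlap: Hom libraries ran from -0.0052 to 0.00877 and Het libraries from -0.0232 to -0.00942. They differed in a two-sided exact permutation test over all 462 splits (p = 0.00433, adjusted 0.00866 over 2 tests), and when splits were kept within litters (210 splits, exact permutation p = 0.00952, adjusted 0.00952); each is the smallest p its splits allow. Litter 1 means were 0.000345 in Hom and -0.0159 in Het, and litter 2 means 0.00296 and -0.0148. Within 1 litter the smallest p possible is 0.0571 in litter 1 and 0.333 in litter 2. The emptied directions held 0.0085% of the Hom minus Het difference, so what had been taken out lay almost wholly within groups, and these p-values may be too small.

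**Figure D4:**
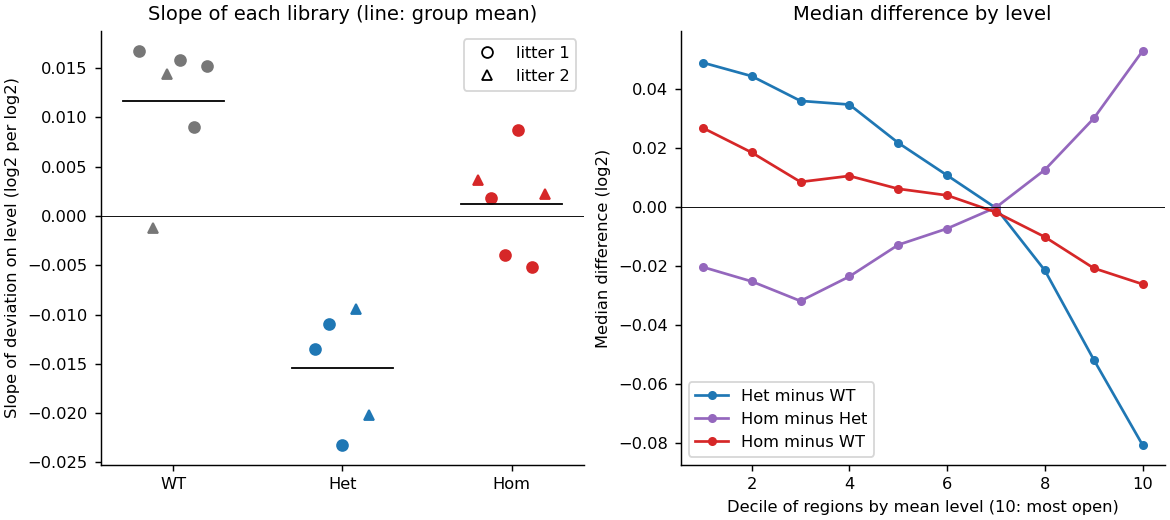
Left, the slope of each library's deviation on level (log2 per log2) for WT, Het and Hom, with circles for litter 1, triangles for litter 2 and a line at each group mean: all 6 Hom libraries lie above all 5 Het libraries. Right, the median difference in log2 per decile of regions by mean level: Hom minus Het is -0.02 at the low end and 0.05 at the high end.

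The 2 litters share no library and were also fitted apart. Over the 138760 regions their Hom minus Het differences correlated at r = 0.15 (Spearman 0.15), a description across regions that share libraries and the authors' joint adjustment, and 56.2% had the same sign. Of the 11940 regions (8.6%) with an unadjusted limma p under 0.05 in litter 1, 66.8% had the same sign in litter 2 and 7.3% also reached p under 0.05 there with that sign, against 4.13% of all regions. Litter 1 alone, with 4 Hom and 3 Het libraries, called 12 regions (0.00865%), of which 11 kept their sign in litter 2 and 5 reached an unadjusted p under 0.05 there. Of these 12 regions 9 were called when all libraries were fitted, and 7 of the 9 belong to the block of 8. Litter 2 alone, with 2 libraries of each, called 5 regions (0.0036%), of which 2 kept their sign in litter 1 and 0 reached an unadjusted p under 0.05. As deposited, no region was called in both litters. With each library's trend against level removed, litter 1 called 26 regions, litter 2 called 11 and both called 4, while the correlation over regions was 0.14 and 54.8% had the same sign.

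**Figure D5:**
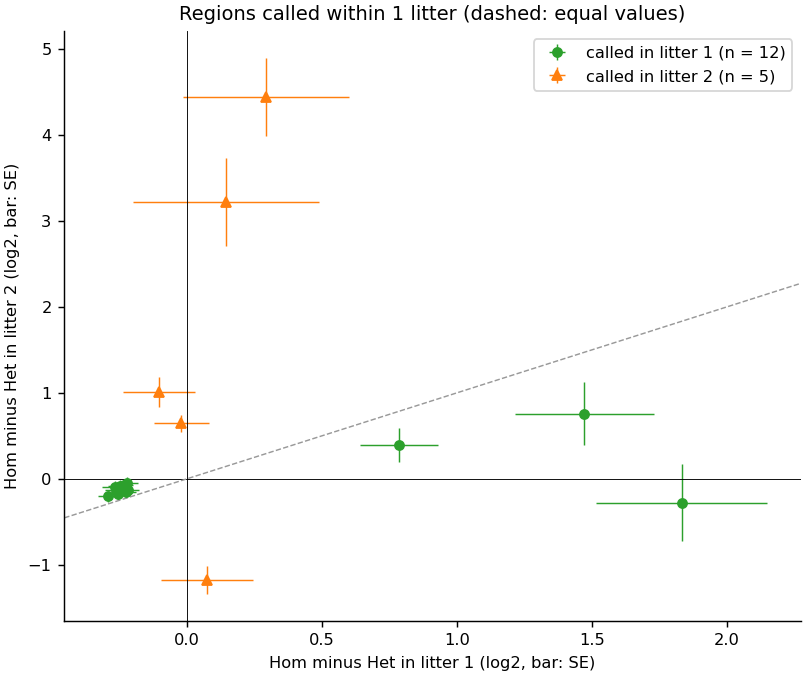
Hom minus Het in log2 with SE is shown in litter 1 (horizontal) and litter 2 (vertical) for the 12 regions called in litter 1 alone (green circles) and the 5 called in litter 2 alone (orange triangles), beside a dashed line of equal values. The group near -0.25 on the horizontal axis lies below 0 in both litters, and the 5 regions called in litter 2 lie between -0.10 and 0.29 log2 in litter 1.

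A test of the difference between litters in the Hom against Het effect called 0 regions (limma; 0%), with 6998 (5.04%) at an unadjusted p under 0.05 and a smallest adjusted p of 0.523. The directions emptied by the adjustment held 16.9% of this term and 64.6% of the mean difference between litters, so the test ran on values from which part of it had been taken. Adding them as covariates gave 3 calls, and leaving out 1 library gave 3 without Hom replicate 6, 2 without Het replicate 64 and 1 without Hom replicate 61. At all 29 regions called in the whole set both litters differed in the direction of the call, which the choice of regions on the libraries of both litters largely fixes. Of all tested regions 56.2% had the same sign in both litters. Of the 29, 2 had an unadjusted p under 0.05 for the difference between litters.

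The precision of the comparison set how much could be seen. The 95% interval of the Hom minus Het difference reached a median of 0.28 log2 to either side, and it lay within 0.5 log2 of 0 at 67.9% of tested regions and within 1 log2 at 98.9%. In the lowest decile of accessibility 12.9% of intervals lay within 0.5 log2 of 0, and in the highest 100% did. Changes of 0.5 log2 at weakly open regions could therefore often not be excluded, whereas a change of 1 log2 lay outside the interval at 98.9% of regions. The intervals are not adjusted for the number of regions tested, so they do not give the size of change that would be called. At the called region with the largest limma adjusted p (0.0494), the unadjusted p was 1.03e-05. With the emptied directions as covariates the median SE over all tested regions was 0.16 log2, against 0.14 log2 without them, so the intervals may be too narrow. Only 21 regions differed by more than 1 log2, 11 higher and 10 lower in Hom. Of these 5 were called, 20 had a mean under 3 CPM, and 10 had no overlap between Hom and Het libraries. The 16 that were not called had a median SE of 0.26 log2, against 0.14 log2 over all tested regions.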

How the data were processed

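The authors deposited 1 table of log2 CPM for E14.5 cortex, after an RUVr adjustment as its title says. RUVr estimates unwanted variation from the residuals of a fit and removes it. The submitters' processing notes name the build mm10 and the tools HTSeq, STAR, Bowtie2 and Trimmomatic, without saying which served this assay. Not given in the sources used here: peak caller, number of factors, any shift of reads for the transposase, and depth. The adult table was not used here.

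Regions whose mean reached 1 CPM entered (lowest kept 1.00002, highest left out 0.999954 CPM). One limma 3.58.1 fit (R 4.3.3, empirical Bayes with a trend, 14 residual degrees of freedom) over 17 libraries gave the contrasts, called at an adjusted p under 0.05. Emptied directions were those below 0.1 of the median root mean square. Slopes were compared by exact permutation tests (scipy 1.17.1). The scripts were tested on simulated data, drawn independently for each region and library. Those data held no emptied directions and no correlation between regions, so they do not give the error rate of these libraries. Alternatives covered litter, the libraries fitted, pseudocounts of 0.1, 0.5 and 2, the filter, scaling and the variance model. Regions named were the 2 largest rises and falls among those called, and, without identifiers, the most open and those with the smallest p. No pair of libraries was identical (0 pairs). Comparisons and rules were chosen with earlier results of these data known.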

Additional observations from a re-analysis of the deposited data

Results flagged for a closer look

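The difference between the 2 mutant groups was itself tested, and 29 regions passed, 11 of them higher and 18 lower in Hom. The step from Het to Hom differed from the step from WT to Het at 921 regions, with Het outside the range of WT and Hom means at every one of them. No library stood far from its group in the 42 groups of values checked (mainly the named regions, the slopes and the means over called regions). Chance gives about 2.1 in unselected values. Called regions were chosen by a test that favours a small spread within groups, so that number does not hold for them. The widely varying region of 10.6 CPM described below was not among the values checked.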

How the results depend on the processing

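The number of regions called between Hom and Het was 12 with litter 1 only, 5 with litter 2 only, 18 with the emptied directions as covariates, 15 with no filter, 15 with a mean of at least 0.5 CPM, 44 with at least 2 CPM, 53 after quantile normalization, 53 after removal of the level trend, 16 without the variance trend and 18 with robust empirical Bayes, and ran from 10 to 36 when single libraries were left out. The other settings stayed within 1.5 times of 29. The unequal steps numbered 502 with a litter block, 53 with litter 1 only, 12 with litter 2 only, 85 with the emptied directions, 469 with no filter, 488 from 0.5 CPM, 383 after quantile normalization, 345 without the level trend and 39 without the variance trend, and 73 to 1298 with single libraries left out. The litter difference called 3 with the emptied directions and 0 to 3 with single libraries left out, where a lone library is assumed to vary like the others. The slope difference between Hom and Het was 0.0163 in litter 1 and 0.0177 in litter 2, where no p under 0.05 is possible, and 0.0151 to 0.0184 with single libraries left out. At all_e14_peak_208154 the step difference reversed to -0.70 log2 in litter 2 only. Apart from the filters and smaller sets, which change what is tested, the cause of these shifts was not tested. No paired analysis was possible because no library number occurs in more than 1 group. Depth is unknown, so counting error could not be set beside the spread between libraries.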

Other observations

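The largest Hom minus Het difference of all tested regions, 1.83 log2 (SE 0.51, limma adjusted p = 0.156), was at a region of 10.6 CPM that varied widely within genotypes and was picked out after its values were seen. In litter 2 the Hom libraries measured 41.3 and 18.5 CPM and the Het libraries 0.253 and 6.43 CPM. In litter 1 the Hom libraries measured 3.65, 4.46, 14.7 and 16.6 CPM and the Het libraries 4.10, 7.45 and 8.92 CPM. Hom minus Het was thus 4.44 log2 in litter 2 and 0.29 log2 in litter 1. WT libraries ran from 4.10 to 16.5 CPM. With the emptied directions as covariates the Hom minus Het difference was called (adjusted p = 0.0319). The test of the difference between litters gave -4.14 log2 (adjusted p = 0.523), and -5.05 log2 with those covariates (adjusted p = 1.3e-06). A second region 2 numbers further on in the table, at 1.46 CPM, showed 3.22 log2 in litter 2 and 0.14 log2 in litter 1.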
